A study of Mus musculus with 4 samples.

Results

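The BCL2 family decides whether a cell keeps or permeabilises its mitochondria, and 10 of its genes were examined here: the survival genes Bcl2, Bcl2l1 and Mcl1, the pore-forming effector gene Bak1, and the BH3-only genes Bcl2l11, Bid, Bbc3, Bad, Bmf and Pmaip1. They were taken by name from the deposited tables of 24411 genes. All 10 were listed, and all 10 passed the filter on low counts with 12244 genes in all. The 4 RNA-seq libraries came from mouse hematopoietic stem cells on a C57BL/6 background, 2 of them Dis3-/- (from Dis3fl/fl;Mx-Cre donor marrow) and 2 wild type (from Dis3fl/fl donor marrow without Cre). Dis3 encodes a catalytic subunit of the RNA exosome, and the comparison asks how its loss alters gene expression in these cells.

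Per the labels' protocols, donor marrow was grafted into irradiated CD45.1 mice, and Cre was induced with 300 µg of pIpC, an RNA duplex that evokes interferon and so switches on the Mx promoter, on days 0 and 2. The treatment text is shared by both genotypes, so wild-type mice are taken to have received pIpC too. Cells negative for lineage markers and CD48 and positive for EPCR and CD150 were sorted on day 4, 100 cells to a library. The Mx promoter acts in any interferon-responsive cell, so deletion was not limited to stem cells, and the Cre transgene itself differed with genotype. Each genotype had 2 mice according to the design text, which does not tie a library to a mouse, so the p-values measure the spread between these libraries.

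BCL2 and its relatives meet at the outer mitochondrial membrane. Survival proteins bind and hold both the BH3-only proteins and the effectors; when BH3-only proteins are in excess, BAK and BAX assemble into pores, cytochrome c leaves the mitochondrion, and APAF1 and caspase 9 start the caspase cascade. Mcl1 is known as a survival gene that mouse hematopoietic stem cells require, and Bcl2l11, which encodes BIM, is known as a death gene restrained by cytokine signals in blood cells.

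Libraries held 6085367 and 6442740 expected counts in Dis3-/- and 6818535 and 6251761 in wild type. Dis3 itself had 140 and 193 counts in Dis3-/- libraries, against 388 and 335 in wild type, a log2 fold change of -1.02 ± 0.14 (SE; edgeR adjusted p = 2.58e-04). The labels do not name the deleted exons, so remaining reads may lie outside them. All 12 stem cell markers tested were detected, 1 of them higher and 5 lower in Dis3-/- cells, with a summed level of 2022 TPM in both Dis3-/- libraries, against 2407 to 2750 TPM in wild type. TPM is transcript abundance per length. Of 12 cell division genes, 12 were higher (865 to 953 against 325 to 388 summed TPM). Over 67 markers of other blood and stromal cell types, 30 were tested, and by edgeR 0 were higher and 12 lower. The 67 summed to 1400 to 1563 TPM in Dis3-/- libraries, against 1891 to 2094 TPM in wild type. Of them, 14 had no read in any library, Cd3e, Ms4a1 and Hbb-bs among them. Other T and NK cell, B cell and erythroid markers had reads. Nkg7 stood at 260 and 211 TPM in Dis3-/- libraries, against 212 and 293 TPM in wild type. Cd79b stood at 22.5 and 25.7 TPM, against 32.2 and 35.2 TPM, and Tfrc at 54.2 and 40.5 TPM, against 54.1 and 65.5 TPM. Of 10 interferon-stimulated genes 2 were higher and 0 lower. Over all tested genes, edgeR called 12.7% higher and 10.2% lower. The part of cell division, of cell makeup and of interferon in the results on the BCL2 family was not tested. In bulk libraries, fewer cells of a type and less RNA per cell cannot be told apart.

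Of the 10 genes, 1 passed the test between genotypes, and its call rested on Dis3-/- replicate 2. Bcl2l11 fell in Dis3-/- stem cells to 46.0 ± 11.1 CPM, against 65.5 ± 2.37 CPM in wild type (SD, n = 2 each; CPM is the count scaled to TMM-normalised library size). The other 9 genes did not pass an edgeR adjusted p of 0.05. By edgeR 0 of 10 genes were called higher, where 12.7% of all tested genes were, and 1 of 10 was called lower, where 10.2% were. In either direction 23.0% of tested genes were called. DESeq2, with 14.2% of tested genes called, and limma-voom, with 22.9%, also called 0 members higher and 1 lower. At an unadjusted p under 0.05, each of the 3 tools counted 1 member higher and 2 lower (by edgeR Pmaip1, and Bcl2l11 and Bmf). Of all tested genes, 19.0% were higher and 16.7% lower at that threshold by edgeR, 13.4% and 11.5% by DESeq2, and 19.1% and 16.7% by limma-voom. Bmf passed the filter on low counts only through its wild-type libraries, and Pmaip1 would not have passed on its wild-type libraries alone. Fold changes were above 0 for 5 members and below 0 for 5. Their median was -0.03 on the log2 scale, beside -0.0027 over all tested genes. Libraries did not overlap between genotypes for 5 members in CPM, where 62.4% of all tested genes did not overlap.

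**Figure D1:**
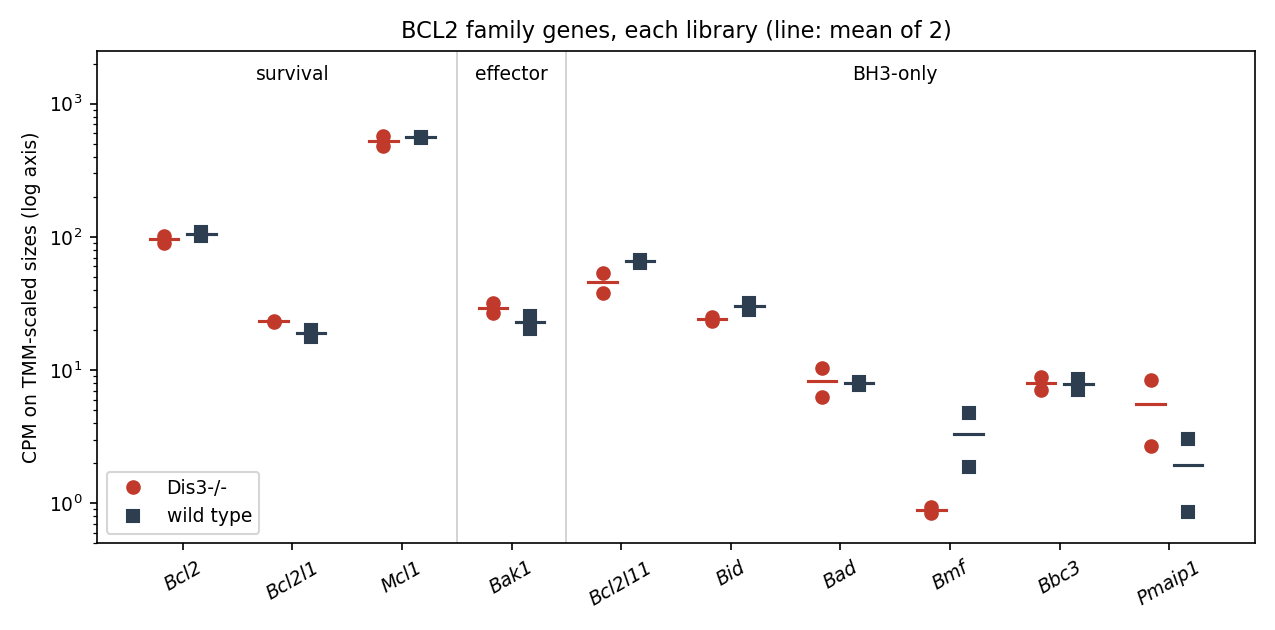
CPM of each BCL2 family gene in every library on a log axis, with Dis3-/- libraries as red circles and wild-type libraries as dark squares; short lines are means of 2 libraries. Mcl1 lies above 400 CPM in all 4 libraries, and the 2 Dis3-/- values of Bcl2l11 (53.9 and 38.2) lie below both wild-type values (63.8 and 67.2).

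Among the survival genes, Mcl1 (chromosome 3, 95656944 to 95663179, mm10), whose protein holds BIM and BAK and turns over quickly, had by far the most RNA of the family. It stood at 478 and 570 CPM in Dis3-/- libraries, against 561 and 556 CPM in wild type. One Dis3-/- library lay below and the other above both wild-type libraries, so the groups overlapped. Its log2 fold change was -0.09 ± 0.08 (SE, 95% interval -0.26 to 0.08, edgeR adjusted p = 0.455). It was 0.03 without Dis3-/- replicate 1 and -0.22 without Dis3-/- replicate 2.

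Bcl2 (chromosome 1, 106538176 to 106714290), the founding survival gene of the family, stood at 102 and 90.1 CPM in Dis3-/- libraries and at 102 and 110 CPM in wild type. The first Dis3-/- library lay between the wild-type libraries and the second below them. Its log2 fold change was -0.14 ± 0.10 (95% interval -0.35 to 0.07; edgeR adjusted p = 0.333). Bcl2l1 (chromosome 2, 152758732 to 152833803), which encodes BCL-XL, stood at 23.4 and 23.1 CPM in Dis3-/- libraries, against 20.0 and 17.8 CPM in wild type. Both Dis3-/- libraries were above both wild-type libraries, but the difference did not pass the test (0.30 ± 0.17, 95% interval -0.07 to 0.67; edgeR adjusted p = 0.239). On TMM-scaled counts the 95% intervals reached down to a fold of 0.833 for Mcl1 and 0.786 for Bcl2, and up to 1.59 for Bcl2l1. They hold for each gene alone and do not cover other scalings, RNA per cell or protein.

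TPM values gave a partly different view of overlap. In TPM, Mcl1 stood at 306 and 375 in Dis3-/- libraries, against 397 and 386 in wild type, and Bcl2 at 38.6 and 38.2, against 43.3 and 50.04, so that neither gene overlapped between genotypes. The share of all tested genes without overlap in TPM is not given here. On log2(TPM + 1) values the median of all tested genes was itself shifted by -0.11. On that scale the change was -0.21 for Mcl1 and -0.27 for Bcl2, and neither passed (limma adjusted p = 0.155 and 0.135). Less the shift, which was not tested, these values were -0.10 and -0.16.

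Of the effectors, Bak1 (chromosome 17, 27019812 to 27028627) had 31.8 and 26.9 CPM in Dis3-/- libraries, against 20.5 and 25.6 CPM in wild type. The lower Dis3-/- library was just above the higher wild-type library in CPM, and just below it in TPM (31.8 against 31.9). The log2 fold change was 0.35 ± 0.17 (95% interval -0.02 to 0.72; edgeR adjusted p = 0.158). Bax, the partner effector of Bak1, is not among the 10 genes but belongs beside it: it rose to 42.2 and 46.3 CPM in Dis3-/- libraries, against 24.2 and 20.0 CPM in wild type (log2 fold change 0.999 ± 0.151, edgeR adjusted p = 4.04e-04). The call of Bax held in all 15 alternative settings. The ratio of Bax to Bak1 TPM was 3.40 and 4.41 in Dis3-/- libraries, against 3.02 and 2.00 in wild type. Whether the 2 genes responded unequally was not tested.

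Bcl2l11 (chromosome 2, 128126038 to 128162547, mm10, plus strand) encodes BIM, a BH3-only protein that binds every survival protein of the family and also activates BAX and BAK. It had 320 and 244 counts in Dis3-/- libraries, against 443 and 423 in wild type. In CPM these were 53.9 and 38.2, against 63.8 and 67.2. Both Dis3-/- libraries were below both wild-type libraries, and the Dis3-/- libraries lay farther apart than the wild-type ones. This gave a log2 fold change of -0.51 ± 0.15 (SE), with an edgeR adjusted p of 0.0207, and a fold of 0.701 with a 95% interval of 0.565 to 0.870. The call rested on Dis3-/- replicate 2: without it the log2 fold change was -0.28 (edgeR adjusted p = 0.178), and without Dis3-/- replicate 1 it was -0.78 (edgeR adjusted p = 5.16e-05). With DESeq2 the adjusted p was 0.0484, and over all 15 alternatives adjusted p ranged from 5.16e-05 to 0.178. On log2(TPM + 1) values the change was -0.70 (limma adjusted p = 0.0190), and less the shift of all genes, which was not tested, it was -0.59.

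**Figure D2:**
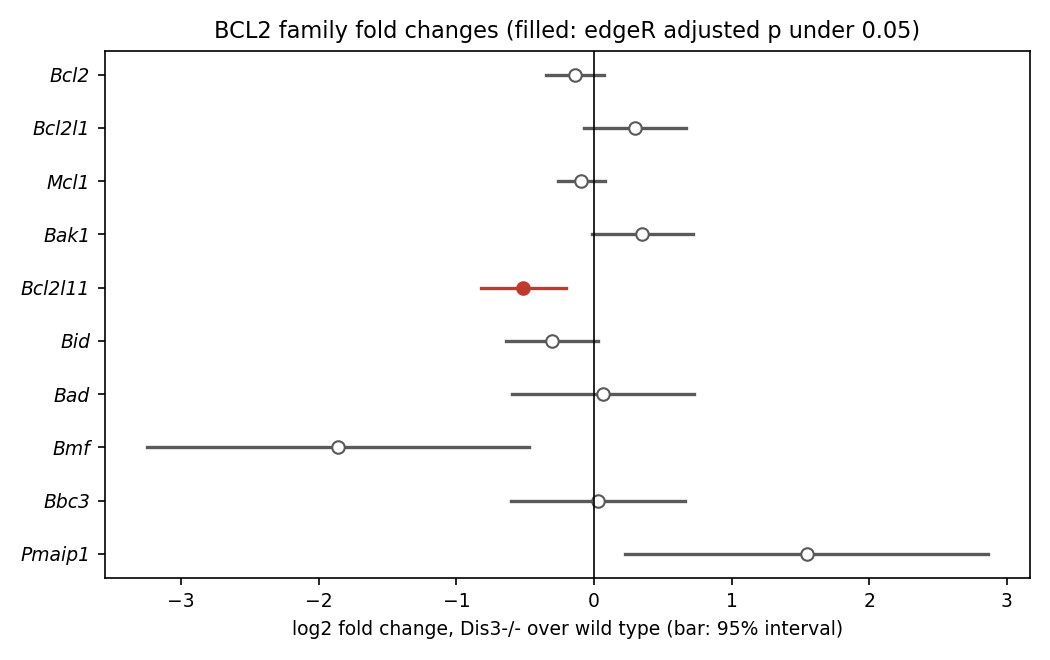
Log2 fold change of each BCL2 family gene, Dis3-/- over wild type, with 95% intervals as bars; the filled red point is the gene with an edgeR adjusted p under 0.05. Bcl2l11 sits at -0.51, while the widest intervals belong to Bmf (-3.25 to -0.47) and Pmaip1 (0.23 to 2.86), the genes with the fewest reads.

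The regulators of these genes were examined as a list of 18, with 17 tested. Of these, 3 were higher and 2 lower, where 12.7% and 10.2% of all tested genes were. The median log2 fold change was 0.08. The forkhead factor genes Foxo1 and Foxo3, whose products are known activators of Bcl2l11 and Bbc3 transcription, were the 2 that fell. Foxo1 stood at 33.8 and 40.0 CPM in Dis3-/- libraries, against 55.3 and 60.5 CPM in wild type (-0.65 ± 0.13, edgeR adjusted p = 2.85e-03). Foxo3, which is named here after its values were seen, stood at 79.8 and 88.7 CPM, against 118 and 103 CPM (-0.39 ± 0.10, edgeR adjusted p = 0.0128). Both genes had no overlap between genotypes. The call of Foxo3 ended without Dis3-/- replicate 1 (-0.32, edgeR adjusted p = 0.0506) or wild-type replicate 1 (-0.29, edgeR adjusted p = 0.120). Trp53, which encodes p53, the known activator of Bbc3, Pmaip1 and Bax, rose to 178 and 151 CPM, against 125 and 110 CPM in wild type (0.48 ± 0.10, edgeR adjusted p = 3.59e-03). Dynll1, a dynein light chain gene whose product binds BIM, rose as well (0.54 ± 0.12, edgeR adjusted p = 5.61e-03). So did Vdac3, a mitochondrial porin gene (0.45 ± 0.11, edgeR adjusted p = 9.37e-03), though not without wild-type replicate 2 (0.38, edgeR adjusted p = 0.0590). Huwe1 and Usp9x, whose products remove and preserve the MCL1 protein, had log2 fold changes of 0.05 ± 0.05 and -0.11 ± 0.06 (edgeR adjusted p = 0.575 and 0.234).

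The stretches before the starts of the family genes were searched for the forkhead core GTAAACA on both strands. This search was chosen after the lower values of Bcl2l11, Foxo1 and Foxo3 were seen. Any part of forkhead factors in the change of Bcl2l11 was not tested. The 250 bases before each RefSeq start (GRCm38.p6) were available for 9 of the 10 genes, as 17 windows. Some windows of Bcl2l1, Bak1, Bid, Bad and Bmf overlap annotated exons of their gene. The Bbc3 windows that begin at 16310011 and 16310181 overlap each other. The core was present in 2 of them, 1 of 2 windows of Bcl2l11 and 1 of 3 windows of Bbc3, and in 3.17% of 32851 windows of all genes. These sequences are shown for those matches, which are in capitals, in lower case otherwise, 5′ to 3′ along each gene.
Bcl2l11, chr2:128125788-128126037, plus strand: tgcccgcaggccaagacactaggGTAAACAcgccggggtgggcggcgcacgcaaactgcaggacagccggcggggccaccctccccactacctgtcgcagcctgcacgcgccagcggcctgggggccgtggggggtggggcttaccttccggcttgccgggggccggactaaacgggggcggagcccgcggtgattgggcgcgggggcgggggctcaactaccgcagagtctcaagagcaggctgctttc
Bbc3, chr7:16310011-16310260, plus strand: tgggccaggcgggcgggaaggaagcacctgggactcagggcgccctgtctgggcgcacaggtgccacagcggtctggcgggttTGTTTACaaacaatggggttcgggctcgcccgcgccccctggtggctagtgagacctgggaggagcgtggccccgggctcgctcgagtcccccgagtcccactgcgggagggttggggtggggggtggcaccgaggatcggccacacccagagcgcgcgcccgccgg
In Bcl2l11 the match began 227 bases before the start and read GTAAACA. In Bbc3 it began 167 bases before the start and was the reverse complement, TGTTTAC. Of the same 17 windows, 9 held a GC box (GGGCGG, 32.7% of all windows), 6 a CCAAT box (CCAAT, 33.8%) and 1 an E-box (CACGTG, 6.02%). None of the 17 held the E2F letters TTTCCCGC (0.895% of all windows) or a TATA box (TATAAA, 12.4%). Both strands were searched for each, and neither forkhead core overlapped another motif. A match describes the letters of a window and is not a binding site.

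Bid (chromosome 6, 120893119 to 120917062), the BH3-only gene whose product is cut by caspase 8 and carries death receptor signals to mitochondria, had 25.2 and 23.5 CPM in Dis3-/- libraries, against 31.8 and 28.3 CPM in wild type. Both Dis3-/- libraries were below both wild-type libraries. The log2 fold change of -0.31 ± 0.16 did not pass (95% interval -0.64 to 0.03; edgeR adjusted p = 0.177). Bbc3 (chromosome 7, 16308398 to 16318334), which encodes PUMA and is activated by p53 and by forkhead factors, had 8.92 and 7.04 CPM in Dis3-/- libraries, against 7.06 and 8.58 CPM in wild type. Its libraries interleaved, and the log2 fold change of 0.03 ± 0.29 (95% interval -0.60 to 0.66; edgeR adjusted p = 0.956) lay on either side of 0 across settings. Whether the changes of Bbc3 and Bcl2l11, which both held the forkhead core in a window, differed was not tested.

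Of the BH3-only genes whose products mainly block survival proteins, Bad (chromosome 19, 6941861 to 6951905) had 6.23 and 10.3 CPM in Dis3-/- libraries, against 7.78 and 8.10 CPM in wild type. The Dis3-/- libraries lay on either side of the wild-type pair (0.07 ± 0.31, 95% interval -0.60 to 0.73; edgeR adjusted p = 0.906), and the sign changed between settings. Bmf and Pmaip1 had the lowest mean TPM of the 10 genes in both genotypes.

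Bmf (chromosome 2, 118528757 to 118549686), whose product is known to bind dynein light chain 2 in mice and to antagonise BCL2, had 5 and 6 counts in Dis3-/- libraries, against 13 and 30 in wild type. That is 0.842 and 0.938 CPM, against 1.87 and 4.76 CPM. Its log2 fold change of -1.86 ± 0.65 narrowly missed the threshold (95% interval -3.25 to -0.47; edgeR adjusted p = 0.0526). It passed in 3 of 15 alternatives, with robust empirical Bayes, without a filter on low counts and without wild-type replicate 1 (-2.39, edgeR adjusted p = 0.0328). Leaving out wild-type replicate 2 instead gave -1.06 (edgeR adjusted p = 0.496).

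Pmaip1 (chromosome 18, 66458604 to 66465558, mm10) encodes NOXA, a p53-induced protein that binds MCL1. It had 16 and 54 counts in Dis3-/- libraries, against 6 and 19 in wild type, or 2.69 and 8.44 CPM, against 0.864 and 3.02 CPM. One Dis3-/- library was within the wild-type range and the other was well above it. The log2 fold change of 1.54 ± 0.61 did not pass (95% interval 0.23 to 2.86; edgeR adjusted p = 0.0859). It passed in 4 of 15 alternatives. Without Dis3-/- replicate 1 it was 2.14 (edgeR adjusted p = 0.00362) and without Dis3-/- replicate 2 it was 0.49 (edgeR adjusted p = 0.749). Without wild-type replicate 1 it was 0.89 (edgeR adjusted p = 0.361), and without wild-type replicate 2 it was 2.67 (edgeR adjusted p = 0.0166).

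**Figure D3:**
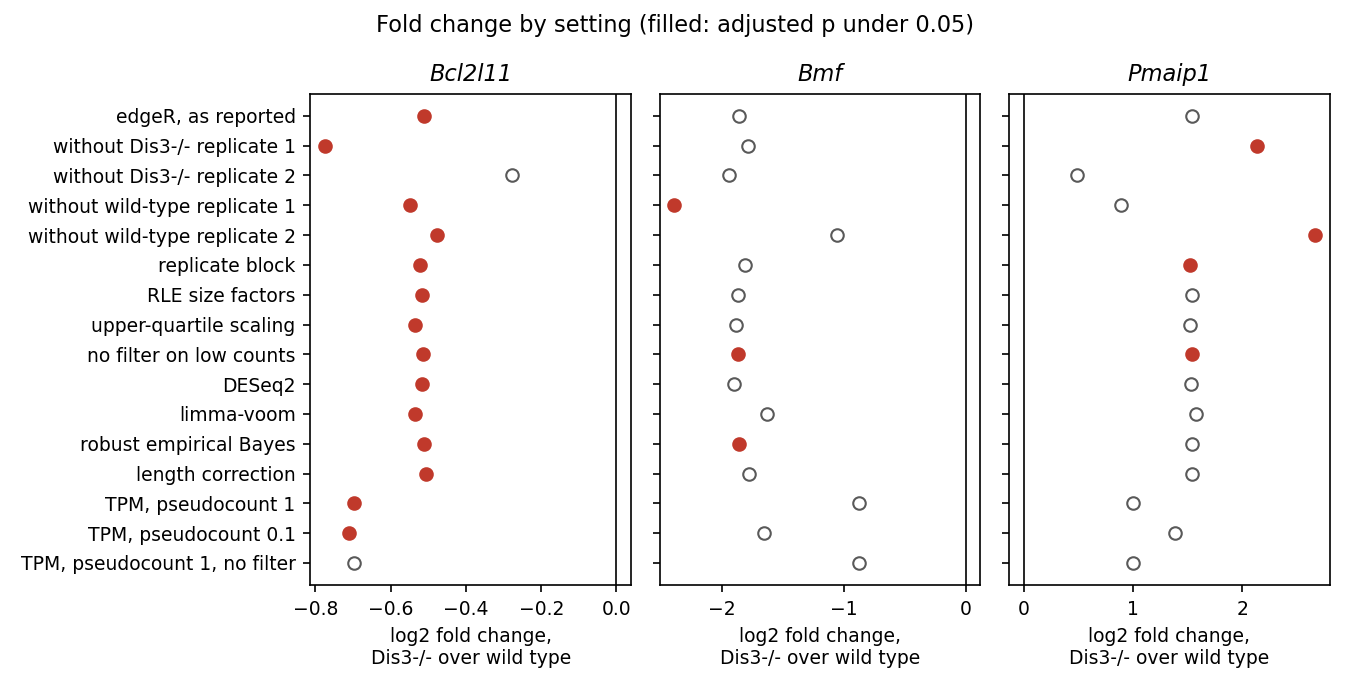
Log2 fold change of Bcl2l11, Bmf and Pmaip1, Dis3-/- over wild type, as reported and under each of 15 alternative settings; filled red points have an adjusted p under 0.05. Bcl2l11 stayed below 0 throughout, from -0.78 to -0.28, and lost its call in 2 settings; Bmf passed in 3 settings and Pmaip1 in 4.

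Levels of the genes can be compared with each other in TPM. In Dis3-/- libraries the order was Mcl1 (340 ± 48.7 TPM), Bcl2 (38.4 ± 0.283), Bak1 (34.2 ± 3.38), Bcl2l11 (34.0 ± 7.38), Bid (30.2 ± 0.976), Bcl2l1 (22.8 ± 0.679), Bad (22.3 ± 8.63), Bbc3 (9.42 ± 1.39), Pmaip1 (4.84 ± 3.61) and Bmf (0.430 ± 0.0424; SD, n = 2 each). Among neighbours in that order, the libraries of Bak1 and Bcl2l11, of Bcl2l11 and Bid, and of Bcl2l1 and Bad overlapped. Bcl2 and Bcl2l11, which are not neighbours in it, overlapped too (38.6 and 38.2 TPM, against 39.2 and 28.7 TPM). In wild type the order was Mcl1 (391 ± 7.64), Bcl2l11 (55.0 ± 0.955), Bcl2 (46.7 ± 4.77), Bid (40.2 ± 3.86), Bak1 (28.9 ± 4.19), Bad (20.8 ± 2.42), Bcl2l1 (19.2 ± 1.68), Bbc3 (9.97 ± 1.24), Pmaip1 (1.80 ± 1.40) and Bmf (1.73 ± 1.04). There, the libraries of Bad and Bcl2l1 and of Pmaip1 and Bmf overlapped.

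Mcl1 made up 83.4% and 85.9% of the summed TPM of Bcl2, Bcl2l1 and Mcl1 in Dis3-/- libraries, against 86.2% and 85.0% in wild type. Bcl2l11 made up 39.4% and 27.9% of the BH3-only sum, against 42.7% and 42.2%. Summed survival genes stood at 367 and 436 TPM in Dis3-/- libraries, against 460 and 454 TPM in wild type. Summed BH3-only genes stood at 99.4 and 103 TPM, against 127 and 132 TPM. Summed Bak1 and Bax stood at 161 and 172 TPM, against 104 and 95.7 TPM. Of that sum Bax, which is not among the 10 genes, held 124 and 140 TPM, against 78.3 and 63.75 TPM. Bak1 held 36.6 and 31.8 TPM, against 26.0 and 31.9 TPM, and overlapped between genotypes. The ratio of survival to BH3-only TPM was 3.69 and 4.24 in Dis3-/- libraries, against 3.62 and 3.44 in wild type. The ratio of Bcl2 to Bcl2l11 TPM was 0.985 and 1.33, against 0.797 and 0.899. The sums do not cover all relatives of each role. The survival gene Bcl2l2 (15.9 and 19.3 TPM in Dis3-/- libraries, against 20.0 and 20.2 TPM in wild type) was left out. So was Bok (13.95 and 9.07 TPM, against 3.42 and 6.00 TPM). These sums and ratios are descriptions, with no test. The shift of all tested genes, a median of -0.11 on log2(TPM + 1) values, was left in the sums.

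**Figure D4:**
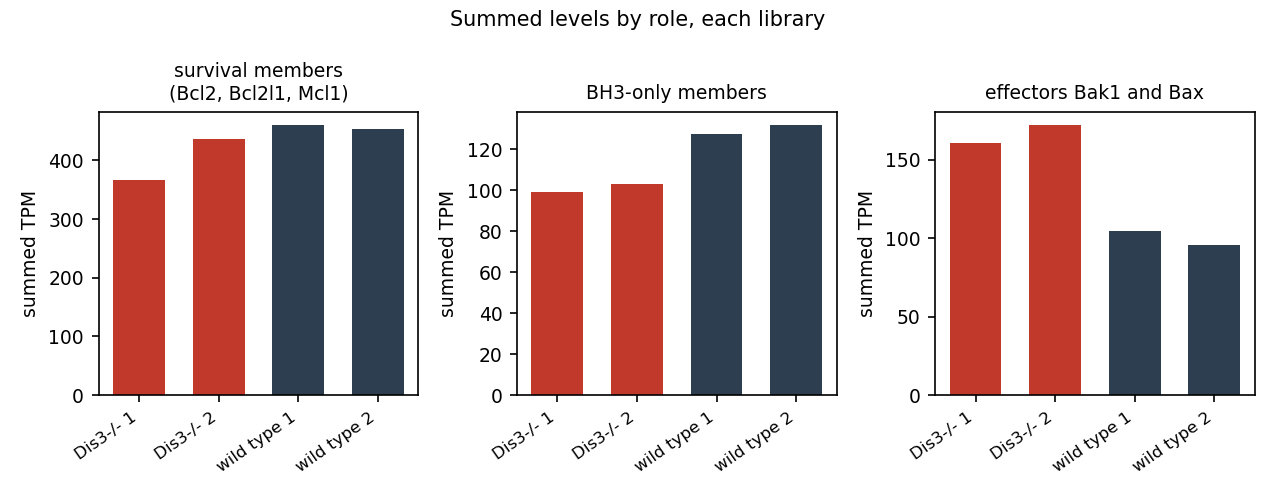
Summed TPM of the survival genes, the BH3-only genes and the effectors (Bak1 and Bax) in each library, Dis3-/- in red and wild type in dark bars, all axes starting at 0. The BH3-only sum is 99.4 and 103 TPM in Dis3-/- libraries, against 127 and 132 TPM in wild type, while the effector sum is 161 and 172 TPM, against 104 and 95.7 TPM. The median shift of all tested genes, -0.11 on log2(TPM + 1) values, is not removed.

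Beyond the 10 genes, other BCL2 family genes were examined as a list of 16, of which 8 were tested. Of these, 2 were higher (Bax and Bok) and 1 lower (Bnip3l), where 12.7% and 10.2% of all tested genes were. The median log2 fold change was 0.05. Bok, a further effector relative, rose to 8.42 and 5.32 CPM in Dis3-/- libraries, against 1.87 and 3.33 CPM in wild type (1.40 ± 0.43, edgeR adjusted p = 0.0325). Its call ended without Dis3-/- replicate 1 (1.04, edgeR adjusted p = 0.259), with DESeq2 (adjusted p = 0.0992), and once wild-type replicate 1 was left out (1.03, edgeR adjusted p = 0.183). Bnip3l, a mitophagy receptor gene, fell to 113 and 102 CPM, against 144.5 and 157 CPM (-0.49 ± 0.09, edgeR adjusted p = 1.83e-03). The survival gene Bcl2l2 stood at 24.7 and 29.1 CPM, against 28.1 and 28.9 CPM (-0.08 ± 0.16, edgeR adjusted p = 0.757). The near-identical Bcl2a1 copies share reads, so only their sum is given: 5 and 42 counts in Dis3-/- libraries, against 3 and 5 in wild type. One Dis3-/- library was above the other 3 libraries, and 1 library of each genotype had 5 counts. In CPM the sums were 0.842 and 6.57 in Dis3-/- libraries, against 0.432 and 0.794 in wild type, with no overlap. The sums were not tested.

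Downstream of the family, 17 of 18 genes of the apoptosome, the caspases and their inhibitors were tested. Of these, 3 were higher and 1 lower, where 12.7% and 10.2% of all tested genes were. The median log2 fold change was -0.01. Cycs, the cytochrome c gene, rose to 91.7 and 91.3 CPM in Dis3-/- libraries, against 41.9 and 39.7 CPM in wild type (1.16 ± 0.11). Aifm1, which encodes another protein of the space between the mitochondrial membranes, rose to 43.6 and 43.8 CPM, against 23.1 and 22.4 CPM (0.94 ± 0.14). Birc5, which encodes survivin and is known foremost as a mitotic gene, rose to 26.3 and 33.3 CPM, against 8.79 and 6.67 CPM (1.94 ± 0.22). The edgeR adjusted p of Aifm1 was 3.64e-04, the largest of these 3. Birc3, an inhibitor of apoptosis gene, fell to 41.6 and 46.6 CPM, against 57.1 and 67.5 CPM (-0.50 ± 0.13, edgeR adjusted p = 0.0126; -0.37 and 0.103 without wild-type replicate 2). Apaf1 (0.03 ± 0.10) and the initiator caspase gene Casp9 (-0.26 ± 0.18) did not pass (edgeR adjusted p = 0.864 and 0.323).

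In the death receptor list, 11 of 12 genes were tested. By edgeR 1 was higher and 0 were lower, where 12.7% and 10.2% of all tested genes were. The median change was 0.06 on the log2 scale. The gene that rose was Mlkl, the pore-forming executor of necroptosis, at 40.2 and 42.7 CPM in Dis3-/- libraries, against 25.4 and 24.1 CPM in wild type (0.74 ± 0.14, edgeR adjusted p = 1.99e-03). Casp8, which encodes the caspase that cuts BID, narrowly missed the threshold (0.25 ± 0.09, edgeR adjusted p = 0.0526). DESeq2 and limma-voom also called 0 genes of this list lower, and Tnfsf10 was the lower gene with an unadjusted edgeR p of 0.0233 (-0.34 ± 0.13).

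**Figure D5:**
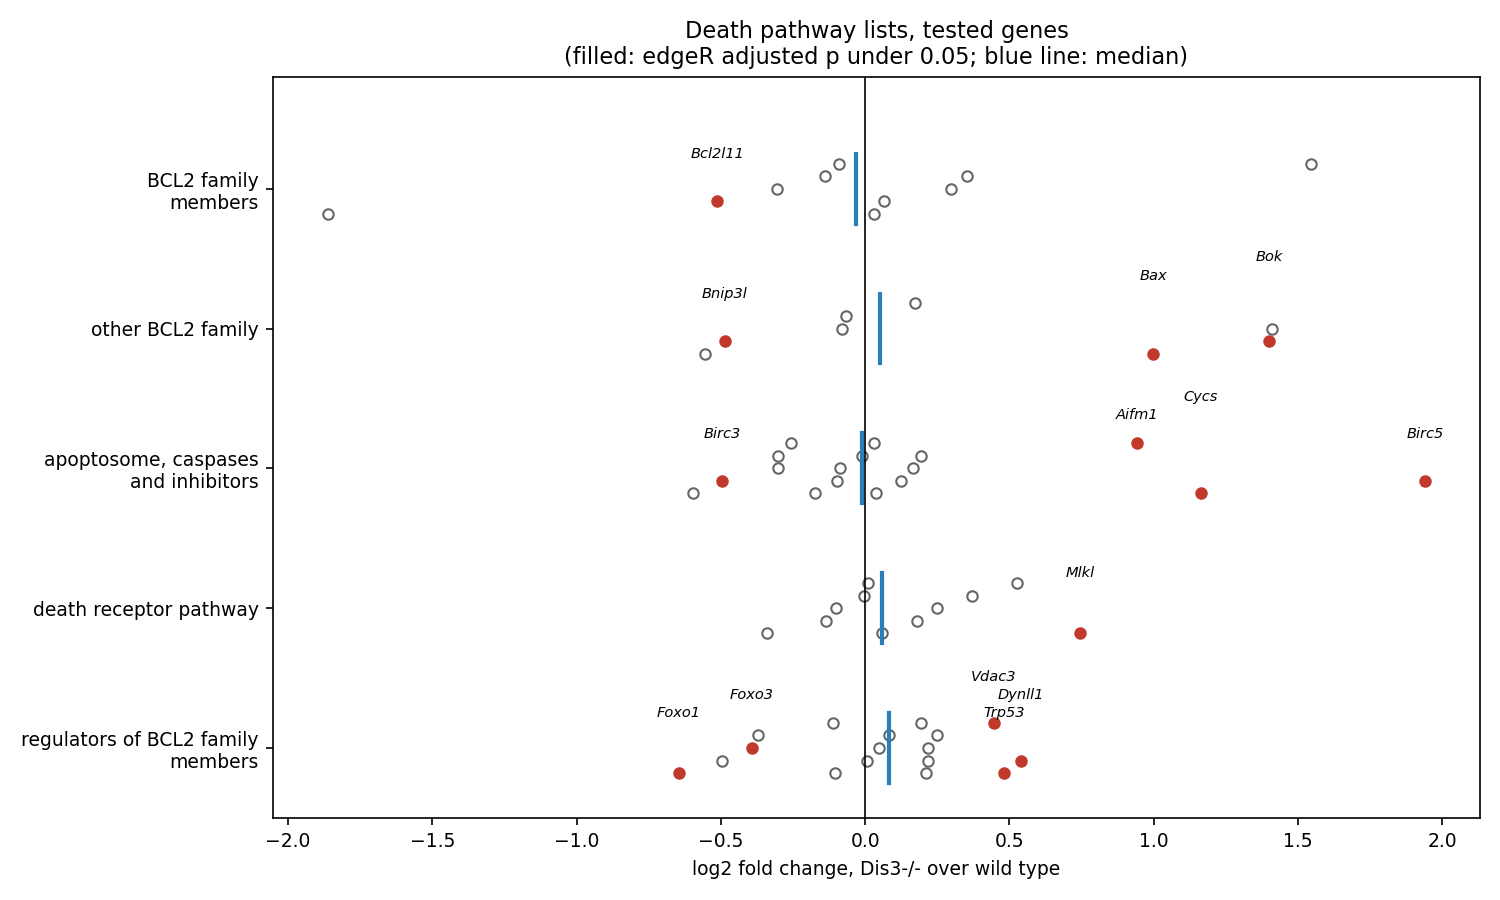
Log2 fold changes, Dis3-/- over wild type, of the 10 BCL2 family genes and of the tested genes of 4 related lists; filled red points are named and have an edgeR adjusted p under 0.05, and blue lines are medians. The medians lie between -0.03 and 0.08, and the called genes spread to both sides of 0.

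The 10 genes lie on 8 chromosomes, 3 of them (Bcl2l1, Bcl2l11 and Bmf) on chromosome 2. Of the 20 tested genes nearest to them, 1 on either side of each, 4 were higher and 1 lower, or 25% called beside 23.0% of all tested genes. Next to Bcl2l11 on one side was the mitotic checkpoint gene Bub1, 294173 bases away in GENCODE M21, which rose (1.59 ± 0.16, edgeR adjusted p = 1.65e-05). On the other side was Gm14005, 15772 bases away, listed in RefSeq as Morrbid, a long noncoding RNA known to repress Bcl2l11 in mouse myeloid cells. It had 16 and 11 counts in Dis3-/- libraries, against 8 and 12 in wild type, and overlapped between genotypes (0.53 ± 0.59, edgeR adjusted p = 0.561). These 2 neighbours are named after their values were seen. Of the family genes, 4 overlap a gene on the other strand. Bcl2 overlaps the antisense gene D630008O14Rik, which was not tested. The tested partners were those of the other 3, Bid with Bcl2l13 (0.17 ± 0.11), Bak1 with Ggnbp1 (-0.53 ± 0.35) and Bad with Gpr137 (0.64 ± 0.23). None of these tested partners passed (edgeR adjusted p = 0.267, 0.300 and 0.0595). Expected counts of Bad and Gpr137 were fractional (37.23 and 86.77 in Dis3-/- replicate 1), so reads there may be divided between genes. Those of Bid, Bcl2l13, Bak1 and Ggnbp1 were whole in all 4 libraries. How reads were assigned within these pairs was not tested, and strand is not given in the sources used. By distance of mean-centred log2 CPM over the 4 libraries, the tested genes with a pattern most like that of Bcl2l11 were Pglyrp1 (0.0419) and Lipo1 (0.0420). Neither passed the test between genotypes (edgeR adjusted p = 0.142 and 0.332). They were picked as the closest of all tested genes over only 4 libraries, and shared control was not tested.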

How the data were processed

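Per the submitters' processing notes the tools were RSEM 1.3.3, STAR 2.7.8a and Trim Galore 0.6.6 on mm10, with no role named for each; annotation and strand are not given in the sources used. Libraries were made by RamDA-seq, a random-primed full-length method, per the labels' protocols. The authors deposited expected counts (estimated, not normalized; 92.3% to 92.6% of values whole at a tolerance of 0) for 24411 genes. Per the file headers, the authors also deposited TPM values for the same genes, which are normalized by transcript length to a common total.

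Expected counts were rounded and tested in edgeR 4.0.16 (R 4.3.3): filterByExpr (minimum count 10, minimum total 15), TMM, glmQLFit and a 2-sided glmQLFTest on genotype, with Benjamini-Hochberg adjustment over 12244 genes and a threshold of 0.05. The SE was taken as the absolute log2 fold change divided by root F, and 95% intervals use the fit's degrees of freedom. The limit that a count of 0 allows, 3 counts, is 0.432 to 0.505 CPM and covers counting error alone, because PCR copies were not marked. Alternatives were DESeq2 1.42.0, limma 3.58.1 (voom, and log2(TPM + 1) or log2(TPM + 0.1)), other scalings, no filter, a length correction, a replicate block and leaving out each library. The procedure was tested on simulated counts. Replicate libraries differed by more than counting noise (chi-square per degree of freedom 3.64 in Dis3-/- and 3.19 in wild type). Same-numbered libraries did not deviate together (Pearson -0.03 over genes), so no pairing was used.

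The members, gene lists and tests were chosen with earlier results of these data known. The rule named the 10 members, Dis3, Trp53, the called genes of each pathway list (the 4 with the smallest p where over 4 were called) and the 2 genes nearest in pattern to a called member; other list genes were picked after their values were seen. Positions and promoter sequences come from RefSeq GRCm38.p6, strands and neighbours from GENCODE M21 on the same assembly.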

Additional observations from a re-analysis of the deposited data

How the results depend on the processing

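Of 150 fold changes of the 10 genes under 15 alternatives, 132 kept their direction and their side of the threshold. Bcl2l11 ended its call without Dis3-/- replicate 2 and, on unfiltered log2(TPM + 1) values, with an adjusted p of 0.0754. The values of 3 uncalled genes changed sign: Mcl1 without Dis3-/- replicate 1 (0.0339), Bad with the length correction (-0.13) and without Dis3-/- replicate 2 (-0.35), and Bbc3 with the length correction (-0.017), on TPM (-0.076 to -0.083), without Dis3-/- replicate 1 (-0.15) and without wild-type replicate 1 (-0.10). With 1 library left out, Mcl1 ranged from -0.22 to 0.03, Bad from -0.35 to 0.38 and Bbc3 from -0.15 to 0.20. The causes were not tested.

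With 1 library left out in turn, the lone library of a genotype is assumed to vary like the other pair. Called genes numbered 1226 to 1319 higher and 886 to 1060 lower, members 0 to 1 higher and 0 to 2 lower. In the lists the ranges were 1 to 4 higher and 1 to 2 lower for other family genes, 3 higher and 0 to 1 lower for the apoptosome and caspases, 1 higher and 0 to 1 lower for death receptors, and 3 higher and 1 to 2 lower for regulators. DESeq2 called 1000 genes higher and 742 lower, against 1561 and 1250 by edgeR; unfiltered TPM called 479 and 471. On log2(TPM + 1) values 1076 genes were higher and 1480 lower, or 42.1% higher among the called, against 55.5% by edgeR. Members higher numbered 1 without a filter and with the replicate block (Pmaip1, adjusted p = 0.0376); members lower numbered 2 without a filter and with robust empirical Bayes, and 0 on unfiltered TPM. The replicate block changed no other call of a member.

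Other family genes called higher numbered 4 without a filter and 1 with DESeq2, the length correction or unfiltered TPM; those lower numbered 2 with upper-quartile scaling, no filter, robust empirical Bayes, the length correction or TPM. Apoptosome genes lower numbered 2 with the length correction or TPM and 0 on unfiltered TPM. Death receptor genes numbered 2 higher with robust empirical Bayes and 1 lower without a filter. Regulators numbered 0 higher and 0 lower on unfiltered TPM, where Trp53 had an adjusted p of 0.105 and Foxo1 of 0.0674. Bmf and Pmaip1 had 5 to 54 counts a library, which limits the precision of their values.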

Other observations

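Bcl2l14, a family relative named after its values were seen, had 17 and 104 counts in Dis3-/- libraries, against 28 and 20 in wild type (log2 fold change 1.41 ± 0.57, edgeR adjusted p = 0.0920). One Dis3-/- library was below both wild-type libraries and the other above them.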
